A study of Mus musculus with 23 samples.

Results

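The Egr and Nr4a families are transcription factors that T cells make soon after the antigen receptor signals, and 8 genes of this system were followed here in antigen-specific T cells. They are the zinc-finger factors Egr1, Egr2 and Egr3, their co-repressors Nab1 and Nab2, and the orphan nuclear receptors Nr4a1, Nr4a2 and Nr4a3. The members were taken by gene symbol from a table of estimated read counts for 21900 mouse genes, and all 8 had a row and passed the low-count filter in every fit. The donor cells were ovalbumin (OVA)-specific transgenic T cells, OT-I (CD8) and OT-II (CD4), moved by adoptive transfer into wild-type C57BL/6 mice. On day 1 after transfer the hosts were given one of 4 treatments, which were 1 ug of A8B1-OVA, free OVA at the molar equivalent of that dose, free OVA at a higher dose, and saline alone. On day 5 the transferred cells were sorted from pooled spleen and lymph node, and the RNA of 3 mice was combined into each library, so a library is a pool and not a single animal.

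The comparison asks how an antigen that, by the title of the series, is aimed at erythrocytes and drives anergy, acts on T cells, with free OVA and saline as the references. What A8B1 is beyond its use as a carrier of OVA, the ages of the mice, and the unit of the OVA doses are not stated by the labels. There were 8 groups. OT-I cells had 3 libraries each from mice given A8B1-OVA, molar-equivalent OVA, higher-dose OVA and saline. OT-II cells had 3 libraries each from mice given A8B1-OVA, molar-equivalent OVA and saline, and 2, replicates 2 and 3, from mice given higher-dose OVA. All groups carry the same transgenic receptor within a cell type, and the hosts of all groups still have their own T cells and other leukocytes.

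The 23 libraries held 26.6 to 73.5 M estimated counts, with medians of 53.4 M in OT-I and 54.8 M in OT-II. Levels are CPM, counts per 1 M counts of the library, after scaling by trimmed mean of M values (TMM) over all libraries. Markers of the CD8 lineage summed to 2386 to 3904 CPM in OT-I and 26.97 to 60.1 CPM in OT-II, and those of the CD4 lineage to 1.99 to 199 CPM in OT-I and 638 to 789 CPM in OT-II. The OT-I higher-dose OVA replicate 1 library held Cd4 at 164 CPM, against 0.326 to 14.8 CPM in the other OT-I libraries. Summed markers of B cells, a list of 18 genes, reached 3186 CPM in 1 OT-I molar-equivalent OVA library, while the OT-I A8B1-OVA libraries held 207 to 357 CPM. In bulk libraries, fewer cells of a type and less RNA per cell cannot be told apart, and no source says that replicates came from separate experiments, so p-values measure only the spread between these pools.

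As background, ligation of the T cell receptor activates Ras and MAP kinase, which drive serum response factor (SRF) and its partners at CArG boxes of Egr genes, and calcium and calcineurin, which drive NFAT and Mef2 factors on Nr4a and Egr genes. Egr2 and Egr3 are known for restraining T cell responses and for their part in anergy, Nab proteins bind Egr factors and limit their activity, and Nr4a receptors act without a known natural ligand and are linked to tolerance and exhaustion. Nr4a1 and Egr1 are among the most used readouts of recent receptor signalling.

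In the GENCODE M21 annotation of GRCm38, Egr2 (ENSMUSG00000037868) lies at chr10:67535475-67542188 on the plus strand and Nab2 (ENSMUSG00000025402) on the same chromosome at chr10:127660918-127668568 on the minus strand. Egr3 (ENSMUSG00000033730) lies at chr14:70077203-70082614 on the plus strand, and Nab1 (ENSMUSG00000002881) at chr1:52457294-52500679 on the minus strand. The receptors are on separate chromosomes, Nr4a1 (ENSMUSG00000023034) at chr15:101254269-101274795 on the plus strand, Nr4a2 (ENSMUSG00000026826) at chr2:57106830-57124003 on the minus strand and Nr4a3 (ENSMUSG00000028341) at chr4:48045153-48086447 on the plus strand. The table gives 1 value per protein-coding gene, and no label says how transcripts were summed to genes.

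Of the 6 members matched to RefSeq (GRCm38.p6), promoters are shown for 4. Each of these has a RefSeq transcript start within 10 bases of the start of a principal GENCODE transcript. Egr2 and Nab2 are members that moved together after A8B1-OVA, and Nr4a1 and Nr4a2 are receptors that did not pass over saline. Each is the stretch of 250 bases before that transcript start, 5′ to 3′ on the gene's strand, with motif matches in capitals. For Egr2, Nr4a1 and Nab2 the stretch lies inside the extent of the gene given above, since other annotated transcripts start further upstream. RefSeq lists 5 starts for Egr2, of which the nearest to a principal transcript was taken. The motifs searched on both strands were the CArG box, the CRE core TGACG, the CRE palindrome TGACGTCA, the EGR site GCGTGGGCG, the Nr4a site AAAGGTCA and TATAAA. RefSeq promoters were matched for 6 of the 8 members. Egr1 was left out of this search, and Egr3 had no RefSeq promoter entry.
Egr2 (chr10:67537619-67537868, plus strand): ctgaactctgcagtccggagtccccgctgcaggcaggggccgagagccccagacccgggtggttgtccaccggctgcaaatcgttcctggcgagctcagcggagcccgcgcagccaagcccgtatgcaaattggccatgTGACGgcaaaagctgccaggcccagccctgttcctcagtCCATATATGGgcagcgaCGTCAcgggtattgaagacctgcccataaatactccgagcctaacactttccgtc
Nr4a1 (chr15:101266596-101266845, plus strand): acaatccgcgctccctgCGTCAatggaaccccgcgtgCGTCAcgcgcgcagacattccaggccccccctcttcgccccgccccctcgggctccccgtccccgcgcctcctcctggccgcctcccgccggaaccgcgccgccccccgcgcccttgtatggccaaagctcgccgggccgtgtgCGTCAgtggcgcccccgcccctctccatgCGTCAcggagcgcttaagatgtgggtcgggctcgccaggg
Nr4a2 (chr2:57124004-57124253, minus strand): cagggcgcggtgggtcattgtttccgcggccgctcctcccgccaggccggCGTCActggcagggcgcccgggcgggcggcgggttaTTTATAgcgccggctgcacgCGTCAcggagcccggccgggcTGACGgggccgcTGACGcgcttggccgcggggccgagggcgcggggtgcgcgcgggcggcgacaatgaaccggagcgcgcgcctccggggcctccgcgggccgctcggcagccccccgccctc
Nab2 (chr10:127666704-127666953, minus strand): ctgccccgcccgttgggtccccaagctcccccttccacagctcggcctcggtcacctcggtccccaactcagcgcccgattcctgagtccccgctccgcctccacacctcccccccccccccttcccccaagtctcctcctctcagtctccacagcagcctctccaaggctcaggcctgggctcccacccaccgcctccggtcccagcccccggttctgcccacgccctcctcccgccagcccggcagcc
The Egr2 stretch held a CArG box at -72 to -63 from the transcript start, with -1 the last base before it, and 2 CRE cores at -111 to -107 and -55 to -51. A CArG box is the element that SRF binds, and 1.37% of 20181 mouse promoters of this length held one. Nr4a1 and Nr4a2 each held 4 CRE cores, an element of cyclic AMP-responsive factors that 20.6% of the promoters held at least once, and Nr4a2 also held TATAAA on the other strand, present in 11.2%. No motif searched had a match in the Nab2 stretch. Of the 2 members matched but not printed, Nab1 held 2 EGR sites, at -141 to -133 and -109 to -101, a motif in 0.758% of the promoters, and 1 CRE core, and Nr4a3 held 4 CRE cores. These are matches of letters and were not tested as binding sites.

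Egr2, Egr3 and Nab2 were the members that stood apart after A8B1-OVA. In both cell types they were higher than after saline, by 1.79- to 4.20-fold. They were also higher than after the molar equivalent of OVA and after higher-dose OVA. In OT-II the result over higher-dose OVA depended on single libraries, and Egr2 did not pass there with any A8B1-OVA library left out. Egr1 was higher than after saline and than after the molar equivalent by a smaller fold. Nab1 did not pass the test in any comparison with A8B1-OVA, and the Nr4a receptors passed only against the molar equivalent of OVA. With edgeR's quasi-likelihood test and Benjamini-Hochberg adjustment over all genes tested, at an adjusted p under 0.05, 4 of 8 members were higher after A8B1-OVA than after saline in OT-I cells and 4 of 8 in OT-II cells, and none were lower. Of all genes tested, 7.07% were higher in OT-I and 4.4% in OT-II. Against the molar equivalent, 6 of 8 members were higher in OT-I, where 6.56% of all genes were, and 5 of 8 in OT-II, where 3.94% were. Against higher-dose OVA, 3 of 8 were higher in OT-I, where 1.63% of all genes were, and 3 of 8 in OT-II, where 0.82% were. The A8B1-OVA libraries are shared by these comparisons within a cell type, so their counts are not separate evidence. Single libraries moved some of these counts. Over higher-dose OVA the 3 in OT-I were 5 without A8B1-OVA replicate 3, and the 3 in OT-II were 0 without higher-dose OVA replicate 2 and 1 without replicate 3. Over the molar equivalent the 5 in OT-II were 3 without A8B1-OVA replicate 1 or 3 or molar-equivalent replicate 2 or 3.

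**Figure D1:**
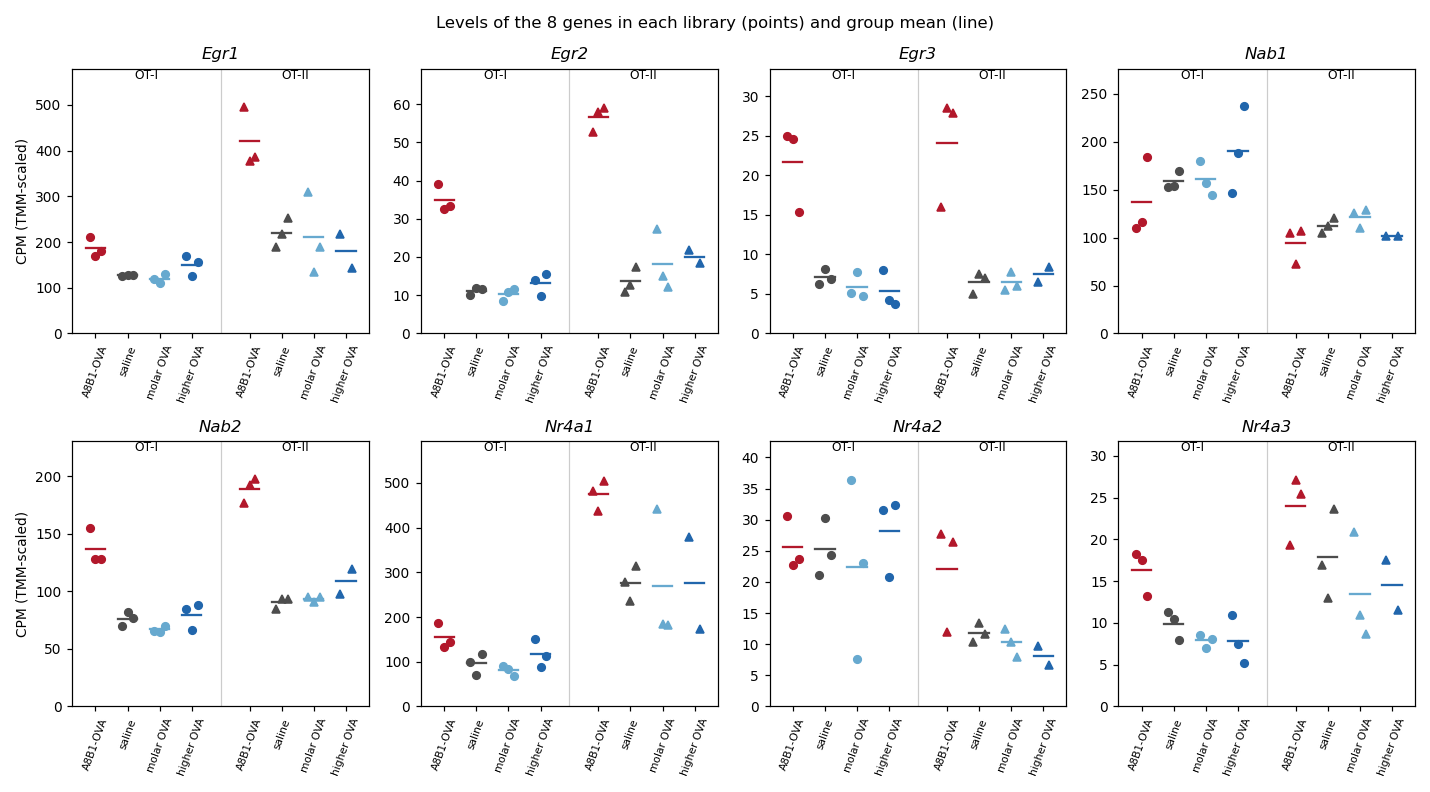
Level of each member (CPM, TMM-scaled, linear axes starting at 0) in each of 23 libraries, by cell type and treatment; circles are OT-I and triangles OT-II libraries, and the short line is the group mean. All 3 A8B1-OVA libraries lie above every other library of their cell type for Egr2, Egr3 and Nab2, while Nab1 and, in OT-I, Nr4a2 show no such step.

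Egr2, a factor needed for anergy programmes in T cells, had 38.995, 32.6 and 33.4 CPM in the OT-I A8B1-OVA libraries, against 8.50, 10.8 and 11.6 CPM after the molar equivalent of OVA, 14.01, 9.77 and 15.6 CPM after higher-dose OVA and 10.2, 11.8 and 11.7 CPM after saline. In OT-II cells the A8B1-OVA libraries had 52.7, 58.05 and 59.1 CPM, against 27.2, 15.1 and 12.2 CPM after the molar equivalent, 21.7 and 18.3 CPM after higher-dose OVA and 10.8, 12.6 and 17.4 CPM after saline. In both cell types every A8B1-OVA library was above every other library, and the lowest A8B1-OVA library of OT-II was above all OT-I libraries. The log2 fold change over saline was 1.63 ± 0.19 (SE, adjusted p = 0.00021) in OT-I and 2.07 ± 0.27 (SE, adjusted p = 0.00099) in OT-II, or 3.09-fold and 4.20-fold. Over higher-dose OVA it was 1.38 ± 0.19 (SE, adjusted p = 0.0038) in OT-I and 1.52 ± 0.30 (SE, adjusted p = 0.033) in OT-II. The OT-II call over higher-dose OVA rests on 2 libraries of that group: adjusted p was 0.24 without replicate 2 and 0.25 without replicate 3, and 0.083, 0.088 and 0.059 without A8B1-OVA replicate 1, 2 or 3.

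Egr3, a close relative that acts with Egr2 in limiting T cell activation, moved with a like size. It had 24.99, 24.6 and 15.4 CPM in OT-I cells after A8B1-OVA, against 5.08, 7.74 and 4.73 CPM after the molar equivalent, 8.07, 4.22 and 3.70 CPM after higher-dose OVA and 6.21, 8.16 and 6.93 CPM after saline. OT-II cells had 16.04, 28.5 and 27.9 CPM after A8B1-OVA, against 5.56, 7.76 and 6.05 CPM after the molar equivalent, 6.51 and 8.45 CPM after higher-dose OVA and 4.98, 7.51 and 7.05 CPM after saline. One A8B1-OVA library of each cell type, replicate 3 in OT-I and replicate 1 in OT-II, was lower than the other two but still above all OVA and saline libraries of its cell type. The log2 fold change over saline was 1.60 ± 0.31 (SE, adjusted p = 0.0058) in OT-I and 1.90 ± 0.26 (SE, adjusted p = 0.0012) in OT-II. Over higher-dose OVA it was 1.99 ± 0.32 (SE, adjusted p = 0.01) in OT-I and 1.71 ± 0.30 (SE, adjusted p = 0.021) in OT-II. The OT-I call over higher-dose OVA ended without A8B1-OVA replicate 2 (adjusted p = 0.052) or higher-dose OVA replicate 3 (0.051), and that of OT-II without A8B1-OVA replicate 2 (0.069) or higher-dose OVA replicate 2 (0.26) or 3 (0.13).

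Egr1, a fast and short-lived responder to MAP kinase, changed by a smaller fold. It had 210.4, 169 and 181 CPM in OT-I cells after A8B1-OVA, against 118, 110.005 and 129 CPM after the molar equivalent, 169, 126 and 156 CPM after higher-dose OVA and 127, 129 and 128 CPM after saline. In OT-II cells it had 496, 378 and 387 CPM after A8B1-OVA, against 310.1, 134 and 188 CPM after the molar equivalent, 218 and 143 CPM after higher-dose OVA and 189, 218 and 253 CPM after saline. The lowest OT-I A8B1-OVA library lay just under the highest higher-dose OVA one, so those groups overlapped. That higher-dose OVA library was replicate 1, which held Cd4 at 164 CPM. The comparison was also fitted without that library, with its Egr1 value not reported here. The part of the Cd4-bearing RNA in the Egr1 level was not tested. The OT-II A8B1-OVA libraries overlapped no other group of their cell type. The log2 fold change over saline was 0.54 ± 0.13 (SE, adjusted p = 0.019) in OT-I and 0.95 ± 0.26 (SE, adjusted p = 0.048) in OT-II. Over the molar equivalent it was 0.64 ± 0.13 (SE, adjusted p = 0.0082) in OT-I and 1.01 ± 0.26 (SE, adjusted p = 0.039) in OT-II. Over higher-dose OVA it did not pass, at 0.28 (adjusted p = 0.26) in OT-I and 1.23 (adjusted p = 0.077) in OT-II, where it passed with DESeq2 (adjusted p = 0.00079) and with only the compared groups in the fit (0.032). Of these 4 Egr1 calls, the one over the molar equivalent in OT-I passed whichever library was left out but not with only the compared groups in the fit (adjusted p = 0.059), and the other 3 depended on single libraries. Over saline the OT-I call ended without A8B1-OVA replicate 1 (adjusted p = 0.062) or any saline library (0.068, 0.065 and 0.076 for replicates 1 to 3). The OT-II call ended without any A8B1-OVA (0.15, 0.076 and 0.068) or saline library (0.12, 0.12 and 0.081). Over the molar equivalent the OT-II call ended without any A8B1-OVA library (0.13, 0.069 and 0.057) or molar-equivalent replicate 2 (0.1) or 3 (0.12).

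Egr4, the remaining Egr factor and not one of the 8 members, had its highest counts in the A8B1-OVA groups. Its counts were 134, 95 and 106 in the OT-I A8B1-OVA libraries, against 7, 0 and 14 in the OT-I saline ones. They were 65, 123 and 18 in the OT-II A8B1-OVA libraries, and the 3 OT-II saline ones held 0. For that saline group the floor of 3 counts is 0.0195 CPM, and the 95% exact Poisson upper limit is 0.0240 CPM. The summed level was 1.84 CPM (95% exact Poisson interval 1.65 to 2.05, counting error only) in OT-I A8B1-OVA, against 0.113 CPM (0.0702 to 0.173) in OT-I saline, a ratio of 16.2 (log2 fold change 4.03 ± 1.04, adjusted p = 0.025). That call was among those lost without A8B1-OVA replicate 1 or 2 or saline replicate 2. In OT-II the summed A8B1-OVA level was 57.9 times the saline floor of 3 counts over the group. That is a ratio to a chosen floor and not a lower bound. The higher-dose OVA libraries summed to 59 counts in OT-I and 28 in OT-II.

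**Figure D2:**
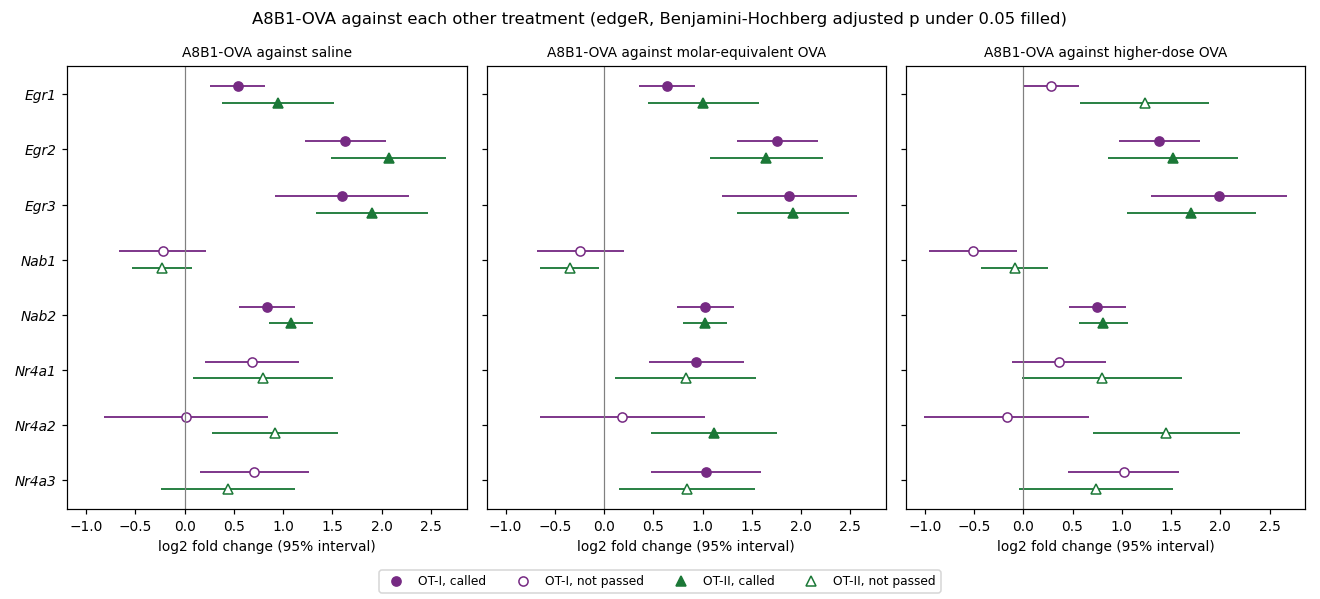
Log2 fold change of each member after A8B1-OVA over saline, over the molar equivalent of OVA and over higher-dose OVA, with 95% intervals; purple circles are OT-I, green triangles OT-II, and filled symbols passed at an adjusted p under 0.05. Egr2, Egr3 and Nab2 are filled in all 3 panels for both cell types, and the Nab1 symbols lie below 0 in each panel.

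The co-repressors went separate ways. Nab2, known to be induced by Egr factors and to limit them in turn, had 155, 128 and 128 CPM in OT-I cells after A8B1-OVA, against 65.5, 64.95 and 69.9 CPM after the molar equivalent, 84.4, 66.2 and 88.03 CPM after higher-dose OVA and 69.7, 81.9 and 76.8 CPM after saline. OT-II cells had 177, 192 and 198 CPM after A8B1-OVA, against 95.1, 90.8 and 94.6 CPM after the molar equivalent, 97.98 and 119 CPM after higher-dose OVA and 84.3, 92.98 and 93.4 CPM after saline. It was the member with the least spread, the highest library of a group being 1.05 to 1.33 times the lowest, and no A8B1-OVA library overlapped another group of its cell type. The log2 fold change over saline was 0.84 ± 0.13 (SE, adjusted p = 0.0015) in OT-I and 1.08 ± 0.10 (SE, adjusted p = 0.00014) in OT-II. Over higher-dose OVA it was 0.75 ± 0.13 (SE, adjusted p = 0.015) in OT-I and 0.81 ± 0.12 (SE, adjusted p = 0.0085) in OT-II, with adjusted p at 0.052 in OT-I and 0.19 in OT-II when replicate 2 of higher-dose OVA was left out. Without the libraries of raised markers of other cells, the OT-I call over higher-dose OVA also ended (adjusted p = 0.075).

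Nab2 counts are uncertain, because 37.9% of its 31-base words also occur in other transcripts. Its exons overlap Stat6, Nemp1 and Gm16229 on the opposite strand over 1241 bases, and no label says whether strand was used in counting. It shares 965 words with Gm16229, 121 with Nemp1 and 10 with Stat6. Gm16229, the main sharer, is annotated as an antisense gene, and no level of it is given here. Stat6, a cytokine signal transducer, averaged 449 ± 40.04 CPM after A8B1-OVA and 524 ± 44.5 CPM after saline in OT-I (log2 fold change -0.23, adjusted p = 0.48), and 540.2 ± 37.8 CPM after A8B1-OVA and 545 ± 25.1 CPM after saline in OT-II (0.00079, adjusted p = 1; SD, n = 3 each). Nemp1, a nuclear envelope protein gene, averaged 18.8 ± 4.60 CPM after A8B1-OVA and 14.3 ± 1.80 CPM after saline in OT-I (0.38, adjusted p = 0.31), and 19.4 ± 1.35 CPM after A8B1-OVA and 14.01 ± 1.08 CPM after saline in OT-II (0.48, adjusted p = 0.12; SD, n = 3 each). Over the molar equivalent in OT-II, Nemp1 passed at 0.68 (adjusted p = 0.035). The part of Stat6, Nemp1 and Gm16229 in the Nab2 result was not tested.

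Nab1, the close relative of Nab2, had 109.6, 116 and 185 CPM in OT-I cells after A8B1-OVA, against 180.4, 157 and 145 CPM after the molar equivalent, 146, 188 and 238 CPM after higher-dose OVA and 153, 154 and 169 CPM after saline. OT-II cells had 105, 72.8 and 106 CPM after A8B1-OVA, against 126, 110.1 and 129 CPM after the molar equivalent, 102 and 102 CPM after higher-dose OVA and 105, 112 and 120.3 CPM after saline. In OT-I, A8B1-OVA replicates 1 and 2 were below all other OT-I libraries and replicate 3 was among the highest. The OT-II A8B1-OVA libraries all lay below the molar-equivalent ones and overlapped the saline ones. The difference from saline was -0.22 in OT-I (95% interval -0.67 to 0.22, adjusted p = 0.53) and -0.23 in OT-II (-0.53 to 0.070, adjusted p = 0.38) on the log2 scale. From higher-dose OVA, Nab1 in OT-I differed by -0.51 (adjusted p = 0.2), and without A8B1-OVA replicate 3 it was called lower, at -0.79, adjusted p = 0.018.

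Among the Nr4a receptors, Nr4a1, whose product Nur77 tracks receptor signal strength, had 187, 133 and 144 CPM in OT-I cells after A8B1-OVA, against 89.5, 83.3 and 68.2 CPM after the molar equivalent, 151, 88.7 and 113 CPM after higher-dose OVA and 99.1, 70.8 and 118 CPM after saline. In OT-II cells it had 481, 436 and 505 CPM after A8B1-OVA, against 441, 185 and 181 CPM after the molar equivalent, 379 and 173 CPM after higher-dose OVA and 279, 236 and 314 CPM after saline. The A8B1-OVA and saline libraries did not overlap in either cell type, but a single molar-equivalent library of OT-II, replicate 1, and the higher-dose replicate 2 library lay far above the others of their groups. Over saline the log2 fold change was 0.68 ± 0.22 (SE, adjusted p = 0.067) in OT-I and 0.79 ± 0.33 (SE, adjusted p = 0.18) in OT-II, with 95% intervals of 0.20 to 1.16 and 0.079 to 1.51, so neither passed. It passed in OT-I with DESeq2 (adjusted p = 0.023), and in OT-II with only the compared groups in the fit (adjusted p = 0.0078) but not with DESeq2 (0.24). Over the molar equivalent it rose in OT-I, at 0.94 ± 0.22 (SE, adjusted p = 0.018), a call that ended without A8B1-OVA replicate 1 (adjusted p = 0.062) or molar-equivalent replicate 3 (0.054). In OT-II it did not pass (0.83, adjusted p = 0.17), and without molar-equivalent replicate 1 it did (1.39, adjusted p = 0.016). Over higher-dose OVA it did not pass in OT-I (0.36, adjusted p = 0.41) or in OT-II (0.80, adjusted p = 0.4). The highest OT-I higher-dose OVA library for Nr4a1, at 151 CPM, was replicate 1, which held Cd4 at 164 CPM. The comparison was also fitted without that library, with its Nr4a1 value not reported here. The part of the Cd4-bearing RNA in the Nr4a1 level was not tested.

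Nr4a3, a receptor that acts in part redundantly with Nr4a1 in T cells, had 18.2, 17.5 and 13.2 CPM in OT-I cells after A8B1-OVA, against 8.60, 7.04 and 8.10 CPM after the molar equivalent, 10.996, 7.41 and 5.20 CPM after higher-dose OVA and 11.3, 10.5 and 7.97 CPM after saline. OT-II cells had 19.4, 27.1 and 25.5 CPM after A8B1-OVA, against 20.9, 10.9 and 8.65 CPM after the molar equivalent, 17.6 and 11.5 CPM after higher-dose OVA and 16.95, 12.99 and 23.7 CPM after saline. In OT-I no A8B1-OVA library overlapped another group, and in OT-II they overlapped both the molar-equivalent and the saline libraries. The log2 fold change in OT-I was 0.71 ± 0.26 (SE, adjusted p = 0.097) over saline, 1.02 ± 0.26 (SE, adjusted p = 0.061) over higher-dose OVA and 1.04 ± 0.26 (SE, adjusted p = 0.024) over the molar equivalent, the only one of these that passed. That call ended without A8B1-OVA replicate 1 (adjusted p = 0.069) or 2 (0.081) or any molar-equivalent library (0.051, 0.056 and 0.051), while without A8B1-OVA replicate 3 (0.024) or higher-dose replicate 1 (0.038) the difference from higher-dose OVA passed. With DESeq2 the OT-I differences from saline (adjusted p = 0.036) and from higher-dose OVA (0.0027) passed. In OT-II the log2 fold change was 0.44 over saline (95% interval -0.25 to 1.12, adjusted p = 0.48) and 0.84 over the molar equivalent (adjusted p = 0.15; 1.31, adjusted p = 0.031, without molar-equivalent replicate 1).

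Nr4a2, the receptor also known as Nurr1, had 30.6, 22.7 and 23.7 CPM in OT-I cells after A8B1-OVA, against 36.3, 7.67 and 23.02 CPM after the molar equivalent, 31.6, 20.8 and 32.3 CPM after higher-dose OVA and 21.03, 30.2 and 24.4 CPM after saline. OT-II cells had 27.7, 11.96 and 26.5 CPM after A8B1-OVA, against 12.4, 10.4 and 8.01 CPM after the molar equivalent, 9.74 and 6.57 CPM after higher-dose OVA and 10.3, 13.3 and 11.6 CPM after saline. The groups of OT-I overlapped throughout, with the molar-equivalent libraries 4.74-fold apart, and the log2 fold change over saline was 0.013 (95% interval -0.82 to 0.85, adjusted p = 0.99). In OT-II, A8B1-OVA replicates 1 and 3 were above all other OT-II libraries, and replicate 2 was among them. There the log2 fold change was 0.92 ± 0.29 (SE, adjusted p = 0.083) over saline, 1.45 ± 0.34 (SE, adjusted p = 0.068) over higher-dose OVA and 1.12 ± 0.30 (SE, adjusted p = 0.044) over the molar equivalent, and only the comparison with the molar equivalent passed. It ended without A8B1-OVA replicate 1 (adjusted p = 0.15) or 3 (0.11) or any molar-equivalent library (0.072, 0.11 and 0.14), whereas without A8B1-OVA replicate 2 the comparisons with saline (1.22, adjusted p = 0.012) and with higher-dose OVA (0.017) passed. With DESeq2 both passed as well (adjusted p = 0.019 over saline and 0.00083 over higher-dose OVA). The call over the molar equivalent also ended with only the compared groups in the fit (0.072) or without the libraries of raised markers of other cells (0.14).

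Free OVA moved none of the 8 genes past the test. With edgeR, 0 of 8 members passed for higher-dose OVA over saline, where 2.41% of all genes changed in OT-I and 0.0271% in OT-II. Nor did any pass for higher-dose OVA over the molar equivalent (1.04% in OT-I and 0% in OT-II) or for the molar equivalent over saline (0% in both cell types). DESeq2 called 0 members in each of these comparisons. At an unadjusted p under 0.05, Nab2 came up for higher-dose OVA over saline in OT-II. Egr1 and Nr4a1 did for higher-dose OVA over the molar equivalent in OT-I, and 0 members did in the other 4 comparisons. Of the OT-I higher-dose OVA libraries, replicate 1, with Cd4 at 164 CPM, held the most Egr1 and Nr4a1. Mean Egr2 in OT-I was 11.2 CPM after saline, 10.3 CPM after the molar equivalent and 13.1 CPM after higher-dose OVA. In OT-II it was 13.6 CPM after saline, 18.2 CPM after the molar equivalent and 20.01 CPM after higher-dose OVA. Both OT-II higher-dose OVA libraries were above the 3 saline ones for Egr2 and for Nab2, and below them for Nab1 and for Nr4a2. The share of all genes without overlap in this comparison is not given, so nothing is read from these separations. For Egr2 and Nab2 the log2 fold changes were 0.55 (95% interval -0.071 to 1.18, adjusted p = 0.89) and 0.27 (0.020 to 0.51, adjusted p = 0.82). Having 2 libraries limits this comparison. In OT-I the upper bound for Egr2 after higher-dose OVA over saline, 0.65, lay below the lower bound for A8B1-OVA over saline, 1.22, on the log2 scale.

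The size of the A8B1-OVA response did not pass a test of the difference between OT-I and OT-II for any of the 8 members. As OT-I minus OT-II, the difference in the log2 fold change over saline was -0.39 for Egr1 (95% interval -1.03 to 0.26, adjusted p = 0.79), where 0.433% of all genes were called. It was -0.42 for Egr2 (-1.11 to 0.28, adjusted p = 0.79) and -0.22 for Nab2 (-0.55 to 0.12, adjusted p = 0.77). None of the 8 had an unadjusted p under 0.05 here, DESeq2 called 0 as well, and the intervals leave room for a larger response in either cell type. Relative to higher-dose OVA, where 0.00656% of genes were called, the difference was -0.90 for Egr1 (-1.59 to -0.21, adjusted p = 0.84) and -1.57 for Nr4a2 (-2.77 to -0.38, adjusted p = 0.84), the 2 members with an unadjusted p under 0.05. For higher-dose OVA over saline, where the called share was 0.00656%, no member passed.

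Set side by side within a treatment, OT-I cells held less Egr1 and Nr4a1 than OT-II cells. After A8B1-OVA, OT-I minus OT-II on the log2 scale was -1.61 for Nr4a1 (adjusted p = 0.0011), -1.17 for Egr1 (adjusted p = 0.00085), -0.69 for Egr2 (adjusted p = 0.041), and -0.46 for Nab2 (adjusted p = 0.0065). Nab1 was the one member higher in OT-I, at 0.53 (adjusted p = 0.05 after rounding, just under the threshold). That made 5 of 8 members, where 20.6% of all genes changed, and Egr3 did not pass (-0.16, adjusted p = 0.75). After saline 2 of 8 passed, Nr4a1 at -1.53 (adjusted p = 0.0016) and Egr1 at -0.78 (adjusted p = 0.018), where 15.5% of genes changed. With saline, all 3 OT-I libraries were above the 3 OT-II ones for Nr4a2 (1.10, adjusted p = 0.056) and below them for Nr4a3 (-0.85, adjusted p = 0.067). With the replicate number as a block both passed (adjusted p = 0.049 for Nr4a2 and 0.045 for Nr4a3), which made 4 of 8. That block gives each replicate number the same shift in all treatments. It does not model a pairing of OT-I and OT-II libraries within a treatment. The Egr2 call after A8B1-OVA ended with any of the 6 libraries left out, at adjusted p of 0.057, 0.14 and 0.086 for OT-I replicates 1 to 3 and 0.072, 0.08 and 0.1 for OT-II replicates 1 to 3. The Nab1 call also ended without OT-I replicate 3 (adjusted p = 0.31) or any OT-II library (0.066, 0.2 and 0.061), which left 3 calls. The Egr1 call after saline ended, leaving 1, without OT-II saline replicate 3 (adjusted p = 0.085).

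Per kilobase of the longest coding transcript, Nr4a1 was the most abundant member in OT-I cells after A8B1-OVA, at 60.7 CPM per kb, followed by Nab2 at 53.1, Egr1 at 41.7 and Nab1 at 35.3 CPM per kb. After saline the first in OT-I was Nab1 at 40.9 CPM per kb, ahead of Nr4a1 at 37.6 CPM per kb. Egr2, Nr4a2, Egr3 and Nr4a3 made up the lower rank, at 11.8, 7.19, 5.50 and 2.86 CPM per kb after A8B1-OVA. In OT-II the Nr4a1 level was 186 CPM per kb after A8B1-OVA and 108 CPM per kb after saline, and Egr1 came next at 93.7 CPM per kb after A8B1-OVA and 49.1 CPM per kb after saline. These ranks depend on the transcript length used. With the median coding transcript length Nab2 was first in OT-I, at 101 CPM per kb after A8B1-OVA, against 62.5 for Nr4a1, and at 56.2 CPM per kb after saline, against 43.6 for Nab1 and 38.7 for Nr4a1. In OT-II, Nr4a1 was first with that length too, but Nab2 came before Egr1, at 139.5 against 112 CPM per kb after A8B1-OVA and 66.6 against 58.5 CPM per kb after saline. Egr2 came to 38.8 CPM per kb in OT-I and 62.7 CPM per kb in OT-II after A8B1-OVA.

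Over the 8 groups, the order of mean levels differed by gene. Egr2 and Nab2 had OT-II A8B1-OVA first, OT-I A8B1-OVA second and OT-II higher-dose OVA next, with no overlap of libraries between any of these neighbours, and for Nab2 none between OT-II higher-dose OVA and the group after it. Egr3 had the same first 2 groups, which overlapped each other and stood clear of the rest. For Egr1, OT-II A8B1-OVA stood alone at the top. For Nr4a1 it was first and clear of OT-II saline, the next group, but 1 OT-II molar-equivalent library, at 441 CPM, was above its lowest library, at 436 CPM. The groups after the first overlapped their neighbours for both genes. OT-I A8B1-OVA was below OT-II saline for both genes. Nab1 had another order, with the 4 OT-I groups above the 4 OT-II groups and A8B1-OVA the lowest in each cell type. Nr4a2 was ordered by cell type too, with each OT-I group mean above each OT-II one, while Nr4a3 had OT-II A8B1-OVA first and OT-II saline second. OT-II saline and OT-II higher-dose OVA, neighbours for Nab1, did not overlap, and all other neighbours in these orders did.

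Across the 23 libraries, with each cell type's mean log2 CPM subtracted, Egr2 and Nab2 had a Pearson correlation of 0.95, Egr3 and Nab2 0.91, Egr2 and Egr3 0.87, and Egr1 and Nr4a1 0.87. These values include the step between A8B1-OVA and the other groups. With each group's own mean subtracted, over the same 23 libraries, Egr1 and Nr4a1 remained at 0.77 and Egr1 and Egr2 at 0.70, while Egr2 and Nab2 came to 0.47 and Egr2 and Egr3 to 0.12. Egr2 and Nr4a1 were at 0.64 and Nr4a1 and Nr4a3 at 0.63. Within groups, then, Egr1, Nr4a1 and Egr2 tended to move together, but not in every library. OT-II molar-equivalent OVA replicate 1 was the highest of its group for all 3 genes. It held 310.1 CPM of Egr1, 441 CPM of Nr4a1 and 27.2 CPM of Egr2. By contrast, OT-II A8B1-OVA replicate 1 held the most Egr1 of its group, 496 CPM, and the least Egr2, 52.7 CPM. OT-I molar-equivalent OVA replicate 3 held the most Egr1 and Egr2 of its group and the least Nr4a1, 68.2 CPM. Nab1 was at -0.70 with Egr3 and -0.64 with Nr4a3 about cell type means, and at -0.63 and -0.43 about group means. With the other 5 members it lay between -0.13, for Nab2, and 0.24, for Nr4a2, about group means. Libraries share depth scaling and RNA handling, so these are descriptions.

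**Figure D3:**
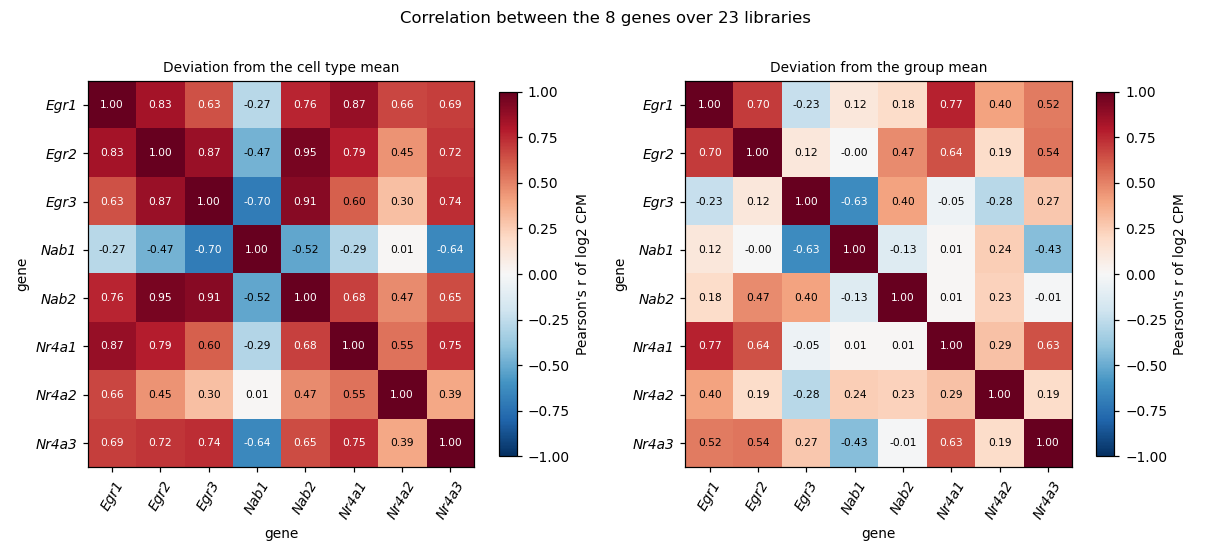
Pearson correlation of log2 CPM between the 8 members over 23 libraries, about the mean of the cell type (left) and of the group (right), on a colour scale from -1 to 1. The Egr2, Egr3 and Nab2 block is strong on the left and fades on the right, where the pair of Egr1 and Nr4a1 stays at 0.77.

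The genes most like each member over the 23 libraries, about cell type means and among 8497 genes with a mean of at least 10 CPM, were these. Egr2 was most like Lad1 (r = 0.94), which encodes the anchoring-filament protein ladinin, Tnfrsf9 (0.91), the co-stimulatory receptor 4-1BB, and Ikzf2 (0.91), which encodes Helios. Nab2 was most like Lad1 (0.96), Egr2 (0.95) and Tnfrsf9 (0.94), and Egr3 was most like Nfkb1 (0.93), a subunit of NF-kB, Foxp4 (0.93) and Tnfrsf9 (0.92). Lad1 averaged 79.4 ± 15.9 CPM after A8B1-OVA and 10.1 ± 1.66 CPM after saline in OT-I (SD, n = 3 each), with a log2 fold change of 2.96 ± 0.24 (SE, adjusted p = 5.4e-05). It averaged 90.4 ± 5.40 CPM after A8B1-OVA and 8.10 ± 1.67 CPM after saline in OT-II (SD, n = 3 each), with a log2 fold change of 3.49 ± 0.17 (SE, adjusted p = 4.6e-07). Egr1 and Nr4a1 had each other as the most like gene (0.87), followed by Egr2 (0.83) for Egr1 and by Nfkbid (0.85), an inhibitor-family NF-kB regulator, and Egr2 (0.79) for Nr4a1. Nr4a3 was most like Nfkbid (0.80), Pfas (0.79) and Timm50 (0.77). Nr4a2 had the weakest likeness of the 8, to Hibadh (0.73), Hspa5 (0.71), a chaperone of the endoplasmic reticulum, and Lta4h (0.67). Nab1 was most like Atp11b (0.93), Usp15 (0.92) and Prkcq (0.88), the kinase PKC theta.

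Of genes in the signal arms above the Egr and Nr4a families, Elk3 and Nfatc1 rose in both cell types after A8B1-OVA over saline, Ppp3ca and Crem fell in both, and most others did not pass. The counts called higher or lower were 0 to 3 in lists of 17 and 20 genes, and nothing is read from them about the lists. All genes tested had a median log2 fold change of -0.021 in OT-I and -0.011 in OT-II, with 4.43% called lower in OT-I and 2.88% in OT-II beside the shares called higher given above. Of the Ras, MAP kinase and SRF list, 2 genes were higher and 1 lower of 17 tested in OT-I (median log2 fold change 0.071), and 1 higher and 0 lower of 17 in OT-II (-0.050). In OT-I, Elk3, an ETS partner of SRF (0.68 ± 0.13, adjusted p = 0.0052), and Srf itself (0.50 ± 0.13, adjusted p = 0.03) rose, while Hras did not pass (0.36, adjusted p = 0.14). In OT-II Elk3 rose (0.85 ± 0.12, adjusted p = 0.0018), and Mrtfb (0.42, adjusted p = 0.06) and Rasgrp1 (0.37, adjusted p = 0.15) did not pass. The OT-II count of 1 was 2 without A8B1-OVA replicate 2.

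Of the calcium, NFAT and Mef2 list, 1 gene was higher and 3 lower of 20 tested in OT-I (median log2 fold change -0.094), and 1 higher and 2 lower of 20 in OT-II (-0.10). Nfatc1, which encodes NFAT2, rose in OT-I (0.82 ± 0.16, adjusted p = 0.0052) and in OT-II (0.88 ± 0.086, adjusted p = 0.00017). Ppp3ca, a catalytic subunit of calcineurin, fell in OT-I (-0.52 ± 0.14, adjusted p = 0.036) and in OT-II (-0.77 ± 0.18, adjusted p = 0.023). Crem, a cyclic AMP-responsive modulator, fell in OT-I (-1.07 ± 0.23, adjusted p = 0.01) and in OT-II (-0.88 ± 0.24, adjusted p = 0.048). Hdac4, a class IIa deacetylase, fell in OT-I (-0.81 ± 0.15, adjusted p = 0.0038), and Stim1 did not pass in OT-II (-0.37, adjusted p = 0.087). The list's count of 4 in OT-I was 2 without A8B1-OVA replicate 2 or saline replicate 3, and that of 3 in OT-II was 1 without the same replicates.

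Other receptor-induced genes split into risers and fallers. Of this immediate early list, 9 genes were higher and 12 lower of 42 tested in OT-I (median log2 fold change -0.35), and 7 higher and 10 lower of 42 in OT-II (-0.43). Tnfrsf9 rose in OT-I (2.61 ± 0.23, adjusted p = 7e-05) and in OT-II (3.67 ± 0.15, adjusted p = 1.5e-07). Icos, a co-stimulatory receptor, rose in OT-I (0.91 ± 0.13, adjusted p = 0.00059) and in OT-II (0.76 ± 0.11, adjusted p = 0.0015). Irf4, an activation-induced interferon regulatory factor, rose in OT-I (1.85 ± 0.19, adjusted p = 9.2e-05), and Spry1, an inhibitor of MAP kinase signalling, rose in OT-II (2.45 ± 0.39, adjusted p = 0.0028). Klf6, a zinc-finger factor also induced by handling, fell in OT-I (-1.50 ± 0.21, adjusted p = 0.00078) and in OT-II (-1.22 ± 0.21, adjusted p = 0.0038). The OT-I count of 21 was 10 without A8B1-OVA replicate 2, 10 without saline replicate 1, 12 without saline replicate 2 and 13 without saline replicate 3. The OT-II count of 17 was 9 and 8 without A8B1-OVA replicates 2 and 3, and 7, 11 and 8 without saline replicates 1, 2 and 3.

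Of genes reported to depend on these factors, Tnfrsf9, Pdcd1 and Ikzf2 rose in both cell types. Among all genes tested more were called higher than lower as well, by the shares given above. Of those reported as Egr2 or Egr3 targets in T cells, 10 genes were higher and 2 lower of 22 tested in OT-I (median log2 fold change 0.51), and 5 higher and 4 lower of 22 in OT-II (0.34). Among them Nrgn, a calmodulin-binding protein gene (5.77 ± 0.60, adjusted p = 0.00011), Lag3, an inhibitory receptor (5.73 ± 0.57, adjusted p = 9.1e-05), Nrn1, which encodes neuritin (5.59 ± 0.48, adjusted p = 6.7e-05), and Tnfrsf9 rose in OT-I. In OT-II, Crtam, an adhesion receptor (3.16 ± 0.51, adjusted p = 0.003), Bcl6, the follicular helper factor (1.46 ± 0.19, adjusted p = 0.0011), Dgkz, a diacylglycerol kinase that damps Ras signalling (0.75 ± 0.093, adjusted p = 0.00077), and Tnfrsf9 rose. Of genes reported as Nr4a-dependent, 8 genes were higher and 0 lower of 21 tested in OT-I (median log2 fold change 0.58), and 6 higher and 2 lower of 21 in OT-II (0.58). Pdcd1, which encodes PD-1, rose in OT-I (4.30 ± 0.41, adjusted p = 8.1e-05) and in OT-II (2.17 ± 0.29, adjusted p = 0.0012). Ikzf2 rose in OT-I (1.73 ± 0.17, adjusted p = 8.2e-05) and in OT-II (2.18 ± 0.26, adjusted p = 0.00063), Irf4 in OT-I as above, and Tox, a factor of exhausted T cells, rose in OT-II (1.09 ± 0.11, adjusted p = 0.00017). Tnfrsf9 and Irf4 stand on more than 1 list, so the counts of the lists overlap.

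After higher-dose OVA over saline in OT-I, 3 of 22 genes tested of the Egr2 or Egr3 target list and 5 of 21 of the Nr4a-dependent list were higher and none lower, where none of the 8 members passed and 2.41% of all genes were called in either direction. For A8B1-OVA over higher-dose OVA in OT-I, the target list had 4 higher and 1 lower of 22 and the Nr4a-dependent list 3 higher and 0 lower of 21, where 1.63% of all genes were called higher and 0.774% lower. In OT-II the target list had 3 higher and 0 lower of 22 and the Nr4a-dependent list 4 higher and 2 lower of 21, where 0.82% of all genes were called higher and 0.522% lower.

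Of 13 partners tested in OT-I and 14 in OT-II, factors that act with or beside the members, 2 were higher and 2 lower in OT-I (median log2 fold change 0.098) and 3 higher in OT-II (0.085). Batf, an AP-1 factor, rose in OT-I (0.58 ± 0.15, adjusted p = 0.025) and in OT-II (0.58 ± 0.13, adjusted p = 0.018). In OT-I Lef1, a factor of naive T cells (-0.39 ± 0.11, adjusted p = 0.039), and Tcf4 (-1.41 ± 0.43, adjusted p = 0.05 after rounding) fell. Hdac1 rose in OT-II (0.45 ± 0.082, adjusted p = 0.0063), and Kdm1a did not pass (0.28, adjusted p = 0.098). The OT-I count of 4 was 0 without A8B1-OVA replicate 1, A8B1-OVA replicate 2 or saline replicate 2, 1 without saline replicate 1 or 3, and 7 without A8B1-OVA replicate 3. Of the named list genes, Hdac4, Nrn1, Spry1, Lef1, Hdac1 and, below, Dnaja1, Hspd1, Hspe1 and the near-identical pair of Hspa1a and Hspa1b share at least 10% of their 31-base words with other transcripts. The shares run from 14.6% for Lef1 to 70.1% for Hspa1a, and the counts of these genes are uncertain.

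Heat shock and handling genes, which tissue dissociation and sorting induce together with Egr1, Nr4a1 and other immediate early genes, also stood at different levels between groups. The summed level of this list was 9957 to 10835 CPM in OT-I A8B1-OVA libraries, against 13394 to 15149 CPM in OT-I saline ones, with no overlap, and 10888 to 17212 CPM in OT-II A8B1-OVA libraries, against 14314 to 19110.1 CPM in OT-II saline ones. Hspa1a, an inducible chaperone, averaged 167 ± 132 CPM after A8B1-OVA and 658 ± 264 CPM after saline in OT-I (SD, n = 3 each; log2 fold change -1.99, adjusted p = 0.081). In OT-II it averaged 584 ± 450.2 CPM after A8B1-OVA and 1115 ± 403 CPM after saline (-0.92, adjusted p = 0.41; SD, n = 3 each). In OT-I the sum was thus lower in the group with higher Egr1, Egr2 and Egr3. Of 22 genes of the list, 5 were lower in OT-I and 3 were higher in OT-II. Among those lower in OT-I were Dnajb1 (-0.97 ± 0.20, adjusted p = 0.0077), Dnajb4 (-0.81 ± 0.18, adjusted p = 0.013), Dnaja1 (-0.83 ± 0.19, adjusted p = 0.013) and Hspa1b (-2.07 ± 0.61, adjusted p = 0.044). Those higher in OT-II were Hspd1 (0.56 ± 0.12, adjusted p = 0.016), Hspa4 (0.36 ± 0.088, adjusted p = 0.029) and Hspe1 (0.41 ± 0.11, adjusted p = 0.038), while Dnajb1 did not pass there (-0.61, adjusted p = 0.12).

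Within groups, about group means over the 23 libraries, the handling sum correlated with Nr4a2 at 0.69, Egr1 at 0.61 and Nr4a1 at 0.45. It was at 0.22 with Nr4a3, 0.13 with Egr2, 0.07 with Nab1, 0.02 with Nab2 and -0.12 with Egr3. For some members these values hid opposite signs by cell type. In OT-I and OT-II, Nab2 was at 0.44 and -0.48, Egr3 at 0.40 and -0.61, and Nab1 at -0.32 and 0.54. Nr4a3 was at 0.68 in OT-I and -0.03 in OT-II. These libraries share sorting and storage steps, and the part of handling in the values of the members was not tested. The handling counts also turned on single libraries. The 5 of OT-I were 1 without A8B1-OVA replicate 2, 1 without saline replicate 3 and 3 without saline replicate 1. The 3 of OT-II were 1 without A8B1-OVA replicate 3 or any saline library.

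**Figure D4:**
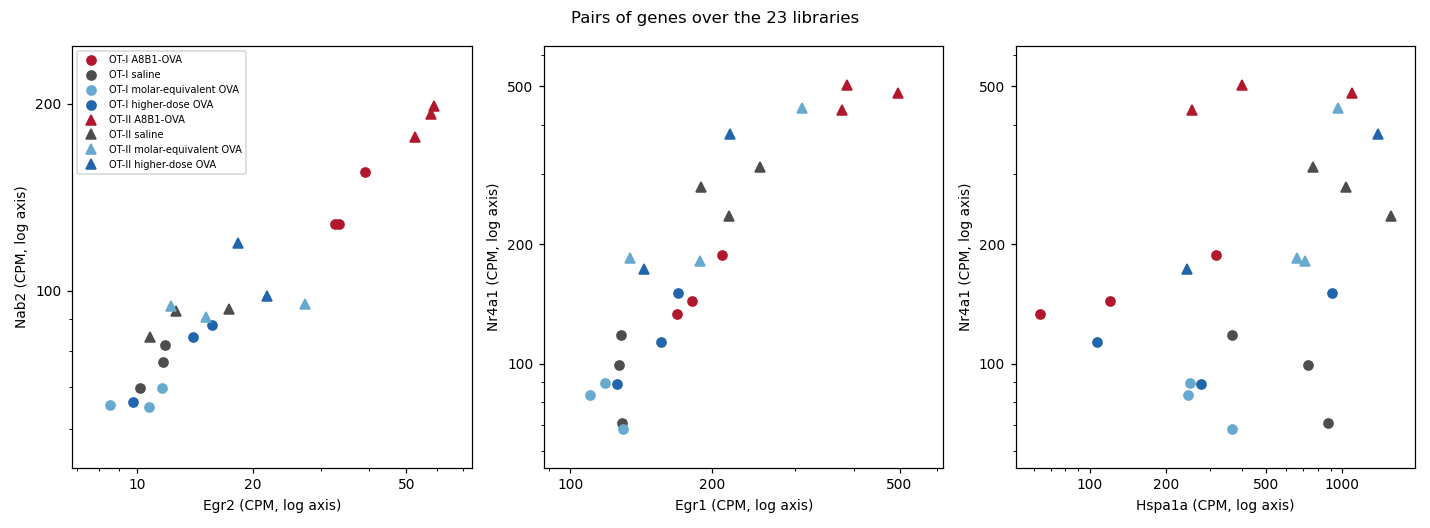
Pairs of genes over the 23 libraries, in CPM on log axes: Nab2 against Egr2, Nr4a1 against Egr1, and Nr4a1 against Hspa1a, coloured by treatment, with circles for OT-I and triangles for OT-II. The A8B1-OVA libraries form the upper right end for Nab2 and Egr2, and Nr4a1 and Egr1 have an r of 0.77 about group means.

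Markers of other cell types also differed between groups. Summed myeloid markers, 24 genes, were 235 to 256 CPM in OT-I A8B1-OVA libraries, against 321 to 732 CPM in OT-I saline ones, and 320.004 to 390.2 CPM in OT-II A8B1-OVA libraries, against 423 to 1126 CPM in OT-II saline ones. Both myeloid ranges were thus lower, without overlap, where Egr2, Egr3 and Nab2 were higher. B cell markers were 218 to 447 CPM in OT-II A8B1-OVA libraries, against 307 to 944 CPM in OT-II saline ones. Erythroid and platelet markers, 14 genes, were 106 to 226 CPM in OT-I A8B1-OVA libraries, against 114 to 306 CPM in OT-I saline ones, and 202 to 406 CPM in OT-II A8B1-OVA libraries, against 237 to 1201 CPM in OT-II saline ones. Markers of NK cells, 15 genes, some of which activated CD8 T cells also express, were 1541 to 1919 CPM in OT-I A8B1-OVA libraries, against 1923 to 2119 CPM in OT-I saline ones. They were 171 to 253 CPM in OT-II A8B1-OVA libraries, against 119 to 166 CPM in OT-II saline ones. The NK sum was thus higher after A8B1-OVA in OT-II, and the part of the myeloid and NK lists in the results was not tested. At most 2 markers of the B cell or myeloid lists were at 0 in any library. The 5 libraries of raised markers are all of the saline and free OVA groups, with no A8B1-OVA library among them. In OT-I they are saline replicate 1, molar-equivalent OVA replicate 2 and higher-dose OVA replicate 1, the last with Cd4 at 164 CPM. In OT-II they are saline replicate 1 and molar-equivalent OVA replicate 3. With these 5 left out, Egr2, Egr3 and Nab2 passed over saline in both cell types, and Egr1 did not in OT-I (adjusted p = 0.066) or in OT-II (0.15).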

How the data were processed

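RNA of sorted OT-I and OT-II cells, 3 mice to a pool, was sequenced by the authors as polyadenylated RNA with SmartSeq cDNA, per the labels' protocols. The deposited values are whole-number expected counts per protein-coding gene, made with bcl2fastq and kallisto 0.46.1 on GRCm38, per the submitters' processing notes. How kallisto's estimated counts were summed and rounded, and whether strand was used, is not stated in the labels or notes. Of 21900 gene identifiers, 21806 were in GENCODE M21. No pair of libraries held identical values. Same-numbered OT-I and OT-II libraries of one treatment deviated together, with correlations of deviations from group means above 0.1 in 6 of 11 pairs, against 1 of 22 pairs of unlike number. All 3 saline pairs were above 0.1 (0.28, 0.13 and 0.13). The A8B1-OVA pairs were at 0.01, 0.16 and 0.25, the molar-equivalent ones at 0.14, 0.01 and -0.03, and the higher-dose ones at 0.02 and -0.005. Deviations in a group are tied by their shared mean, so these values are not independent. No label pairs the libraries, and the main tests between cell types used no pairing.

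Counts were tested with edgeR 4.0.16 (quasi-likelihood, TMM, filterByExpr at its defaults of count 10 and total 15) in R 4.3.3 with limma 3.58.1, in 1 fit per cell type over its 4 treatments (14080 genes in OT-I and 14757 in OT-II). A joint fit of 15235 genes served comparisons between cell types. Adjusted p is by Benjamini and Hochberg over all genes of a fit, with a threshold of 0.05. Each SE is the log2 fold change divided by the root of F. Log2 CPM for correlations used a prior count of 2, and marker sums used plain totals. Counts of genes near 0 were given a floor of 3 counts and 95% exact Poisson intervals, which cover counting error only. Data were simulated for A8B1-OVA over saline, with 100 genes changed at each fold. OT-I gave back 98 of the 4-fold and 19 of the 2-fold genes (13873 tested). OT-II gave back 96 of the 4-fold and 27 of the 2-fold genes (14300 tested). False calls were 4.88% of the calls in OT-I and 6.82% in OT-II. The simulation gave every gene the same spread and changed 200 genes, where the data had 1620 called in OT-I and 1074 in OT-II. Its recovery may thus differ from that in the data.

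Shared 31-base words between transcripts and the longest coding transcript of each gene came from GENCODE M21, and promoters from RefSeq. All 8 members are named in every comparison, the 3 most like genes of each were taken by Pearson's r with genes sharing 10% or more of their words passed over, and each pathway list gives up to 4 genes of lowest adjusted p in each cell type; some genes these rules pick are not reported here. The members and lists were chosen with earlier results of these data known, as was the set of 5 libraries with raised markers of other cells. Alternatives were DESeq2 1.42.0, RLE scaling, no count filter, a replicate block, only the compared groups, those 5 libraries left out, and each library left out in turn.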

Additional observations from a re-analysis of the deposited data

How the results depend on the processing

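Egr2, Egr3 and Nab2 passed over saline and over the molar equivalent of OVA in both cell types under each of the 12 alternatives run for these comparisons. With single libraries left out, the members called after A8B1-OVA in OT-I numbered 3 to 4 over saline, 4 to 6 over the molar equivalent and 2 to 5 over higher-dose OVA. In OT-II they numbered 3 to 4 over saline, 3 to 6 over the molar equivalent and 0 to 2 over higher-dose OVA. Between OT-I and OT-II they numbered 3 to 4 after A8B1-OVA and 1 to 3 after saline. The 5 called over the molar equivalent in OT-II were 3 with only the compared groups in the fit and 3 without the libraries of raised markers of other cells, a set named in an earlier account of these data. The 3 called over higher-dose OVA in OT-II were 5 with DESeq2. The 2 called between OT-I and OT-II after saline were 4 with DESeq2 and 1 without the raised-marker libraries. The cause of these changes was not tested, and fits that leave libraries out also have fewer of them. Over saline, DESeq2 called 6 members in OT-I, with Nr4a1 and Nr4a3 added, and 5 in OT-II, with Nr4a2 added, and the fit of only the compared groups called 5 in OT-II, with Nr4a1 added. Comparisons with 0 members called kept 0 under every alternative.

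Between treatments of a cell type, no label pairs the libraries. Same-numbered libraries had deviations from their group means that correlated above 0.1 in 2 of 18 pairs in OT-I and 0 of 15 in OT-II. For unlike numbers it was 6 of 36 pairs in OT-I and 3 of 30 in OT-II. Deviations in groups of 2 or 3 libraries are tied by their shared mean, so these values cannot settle whether libraries were paired. The replicate block gave each number the same shift in all treatments. With it, the members called between OT-I and OT-II after saline were 4. Those after A8B1-OVA were 4, without Egr2 (adjusted p = 0.051). In OT-I, Nr4a1 passed over saline (0.038) and Nr4a3 over higher-dose OVA (0.036). In OT-II the Egr1 call over saline (0.069), the Nr4a2 call over the molar equivalent (0.076) and the Egr2 call over higher-dose OVA (0.094) ended.

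Directions turned only in values that did not pass. Without the raised-marker libraries, Nr4a2 in OT-I came to -0.10 over saline and -0.22 over the molar equivalent, and for higher-dose OVA over saline in OT-I Nab2 came to -0.020 and Nr4a2 to -0.021. With the replicate block, Nr4a2 in OT-I came to -0.055 over saline, and Nr4a1 in OT-II to 0.11 for higher-dose OVA over saline. With single libraries left out, log2 fold changes that crossed 0 ran, for A8B1-OVA in OT-I, from -0.12 to 0.16 (Nr4a2 over saline) and from -0.22 to 0.73 (Nr4a2 over the molar equivalent). In OT-II they ran from -0.18 to 0.071 (Nab1, A8B1-OVA over higher-dose OVA), from -0.014 to 0.38 (Egr3, higher-dose OVA over saline) and from -0.67 to 0.45 (Nr4a1, higher-dose OVA over saline). Differences between cell types in the A8B1-OVA response over saline ran from -0.25 to 0.18 for Nab1 and from -0.24 to 0.11 for Nr4a1. Those over higher-dose OVA ran from -0.25 to 0.059 for Egr2, from -0.18 to 0.13 for Nab2 and from -1.05 to 0.061 for Nr4a1, and those for higher-dose OVA over saline from -0.16 to 0.99 for Nr4a1 and from -0.33 to 0.32 for Nr4a3. Levels in OT-I over OT-II ran from -0.38 to 0.038 for Egr3 and from -0.080 to 0.41 for Nr4a2 after A8B1-OVA, and from -0.057 to 0.25 for Egr3 after saline.

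Pools of 3 mice, 2 to 3 libraries to a group and an unknown use of strand limit these values. Simulated 2-fold changes were mostly missed, in a simulation with the same spread for every gene and fewer changed genes than the data had called.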
